A study of Mus musculus with 4 samples.

Results

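The genes described here are 10 receptors and ligands of T cell costimulation: Tnfrsf4 (OX40), Tnfrsf9 (4-1BB), Tnfrsf18 (GITR), Icos, Cd28, Tnfsf8 (CD30 ligand), Tnfsf11 (RANK ligand), Tnfsf4 (OX40 ligand), Cd40lg (CD40 ligand) and Cd40. They were chosen by name, as a functional group, from the 31253 genes of the deposited matrices, of which 20525 had at least 1 UMI (unique molecular identifier, a count of captured transcripts) in the cells used. Earlier results of these data were known when they were chosen. Single-cell 3' RNA-seq was run on live leukocytes (CD45+), which were sorted from hemispheres with tumor in mice 14 days after intracranial implantation of CT2a glioma cells. The study compared 4 wild type (WT) C57Bl/6 mice with 4 CaMKK2 KO mice, in which the calcium/calmodulin-dependent kinase kinase 2 gene is deleted in the germline, so that every host cell lacks it while the implanted glioma cells do not. The mice were untreated females in the young adult range, and hashtag antibodies told the 4 mice of each genotype apart. Each genotype was loaded in its own channel, so that genotype and channel cannot be told apart.

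T cells need a costimulatory signal beside antigen recognition to expand, survive and make cytokines. CD28 and ICOS, which belong to the immunoglobulin superfamily, deliver it through phosphoinositide 3-kinase and related adaptors when they bind CD80, CD86 or ICOS ligand on antigen presenting cells. The TNF receptor family members OX40, 4-1BB, GITR and CD40 recruit TRAF adaptors and switch on NF-kappaB. Most of them are induced by activation, 4-1BB marks recently antigen-stimulated CD8 T cells, and regulatory T cells (Tregs) carry OX40, GITR and ICOS at rest. CD40 ligand on helper T cells engages CD40 on B cells, macrophages and dendritic cells (DCs) and licenses the latter to prime CD8 T cells.

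Of the cells used, 5050 came from WT and 5635 from KO mice, with median depths of 12597 and 11457 UMIs, and the total per mouse was 11886048 to 20346223 UMIs. A cell was given to a class by UMIs of marker genes that include none of the 10 genes, and 10109 of the 10685 cells fell in 1 of 17 classes. The classes used most held 395 WT and 346 KO CD8 T cells, 37 and 226 conventional CD4 T cells (Cd4 without Foxp3), 101 and 138 Tregs, 580 and 828 NK cells, 168 and 194 B cells, 1790 and 1364 macrophages, 678 and 1358 classical monocytes, 229 and 117 conventional type 2 DCs (cDC2) and 81 and 113 mature DCs (Ccr7 and Fscn1 expressing). WT mouse 1 gave only 39 T cells, with no conventional CD4 T cell, 17 CD8 T cells and 6 Tregs. Between the channels 42 cell barcodes were shared, 8 of them among the cells used. Camkk2 itself stood at 27.7 to 38.96 CPM (counts scaled to library size) over all cells of the WT mice and at 13.32 to 22.63 in the KO mice, and these 3' tags do not show which part of the gene was deleted. In the lymphocyte classes the summed level of 10 macrophage markers, all detected, was higher in every WT mouse, at 452 to 543 CPM against 132 to 154 in CD8 T cells, 776 to 1027 against 127 to 228 in conventional CD4 T cells, 634 to 735 against 149.9 to 250.7 in Tregs and 427 to 532 against 124 to 163 in NK cells. In macrophages themselves the same sum was 46570 to 57770 CPM in WT and 15240 to 21900 CPM in KO mice. It therefore does not tell how much macrophage RNA the lymphocytes of each genotype held. The classical monocyte markers summed to 623.5 to 929.1 CPM in WT and 1122 to 1234 CPM in KO NK cells, and overlapped between genotypes in the 3 T cell classes. The part of RNA from myeloid cells in the genotype differences was not tested.

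Levels are given as CPM, the UMIs of a gene scaled to a common total of UMIs of all genes, in the summed cells of a class in 1 mouse. Since captured tags, and not lengths, set these counts, levels are compared between classes and mice for the same gene and not between genes. Tests were edgeR quasi-likelihood tests on UMIs summed per mouse and class over every gene with at least 50 UMIs, with Benjamini-Hochberg adjustment over those genes and a threshold of 0.05.

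By position 3 of the 5 receptors of T cells lie on chromosome 4, where Tnfrsf4 (chr4:156013843-156016612, plus strand, GRCm38, GENCODE M21) ends 9551 bases before Tnfrsf18 (chr4:156026164-156028895, plus strand) begins. Tnfrsf9 (chr4:150914562-150946102, plus strand) is overlapped on the other strand by Camta1, and Tnfrsf18 by Gm16008. Cd28 (chr1:60716800-60773359) and Icos (chr1:60977927-61000320) share a strand on chromosome 1 with 204567 bases between them. Icos is overlapped on its own strand by Gm37039, and whether this moved its UMIs was not tested. The ligands are spread over Tnfsf8 (chr4:63831308-63861347), Tnfsf11 (chr14:78277445-78308043), Tnfsf4 (chr1:161395409-161418410) and Cd40lg (chrX:57212143-57224042), and Cd40 lies at chr2:165055627-165072948. Tnfrsf9 is the gene on which most genotype results turned, and RefSeq (GRCm38.p6) gives 2 starts for it, at chr4:150919905-150920204 and chr4:150927749-150928048 in windows of 300 bases, 250 of them before the start. The windows are printed 5' to 3' on the plus strand with matches to GGGNNTTTCC (a kappaB-like motif) and TGANTCA (an AP-1-like motif), searched on both strands, in capitals.
Tnfrsf9 upstream start: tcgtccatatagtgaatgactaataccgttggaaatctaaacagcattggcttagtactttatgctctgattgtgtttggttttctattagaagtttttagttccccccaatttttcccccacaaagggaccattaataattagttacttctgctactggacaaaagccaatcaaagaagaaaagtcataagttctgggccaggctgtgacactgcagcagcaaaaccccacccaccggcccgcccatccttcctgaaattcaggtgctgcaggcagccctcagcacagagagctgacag
Tnfrsf9 downstream start: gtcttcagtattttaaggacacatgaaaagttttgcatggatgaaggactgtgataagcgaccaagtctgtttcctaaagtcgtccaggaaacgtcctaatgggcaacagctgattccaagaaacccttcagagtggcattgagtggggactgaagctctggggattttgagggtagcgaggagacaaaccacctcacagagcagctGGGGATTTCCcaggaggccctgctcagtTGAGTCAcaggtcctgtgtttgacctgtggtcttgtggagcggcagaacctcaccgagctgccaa
The downstream window held both motifs, the kappaB-like match 43 bases and the AP-1-like match 15 bases before the start. The upstream window held neither, and neither did the windows of Tnfrsf4, Tnfrsf18, Tnfsf8 and Tnfsf11, the other 4 of the 10 genes with a promoter entry. Over all 32851 promoters, 1.63% held the kappaB-like letters and 7.81% the AP-1-like letters. The motifs were picked after the windows were read, and 3' UMIs do not show which start was in use.

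Across classes, each of the 10 genes had its highest mean in Tregs, conventional CD4 T cells or mature DCs. Tnfrsf4, Tnfrsf9, Tnfrsf18 and Icos had their highest class mean in Tregs, at 1594 ± 284, 560.3 ± 276, 1108 ± 184 and 1016 ± 211 CPM (SD, n = 8 mice). Cd28, Tnfsf8, Tnfsf11 and Cd40lg were highest in conventional CD4 T cells, at 395 ± 55.1, 171 ± 96.6, 99.5 ± 71.7 and 70.8 ± 39.96 CPM (SD, n = 7 mice, since WT mouse 1 had no such cell). Tnfsf4 and Cd40 were highest in mature DCs, at 33.8 ± 26.5 and 340.3 ± 190.2 CPM (SD, n = 8 mice). The 5 receptors were therefore at their peak in CD4 lineage cells, whereas CD40 peaked in the DC class that had matured. In B cells, which lack most of these receptors, Tnfrsf9 stood at 3.42, Icos at 1.32 and Cd28 at 1.85 CPM, beside Tnfrsf4 at 7.07 and Tnfrsf18 at 18.7 CPM. Macrophage markers summed to 1537 to 2954 CPM in the B cells of WT mice and 189.7 to 967.5 CPM in those of KO mice, and how much of these receptor levels is RNA from other cells was not tested.

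**Figure D1:**
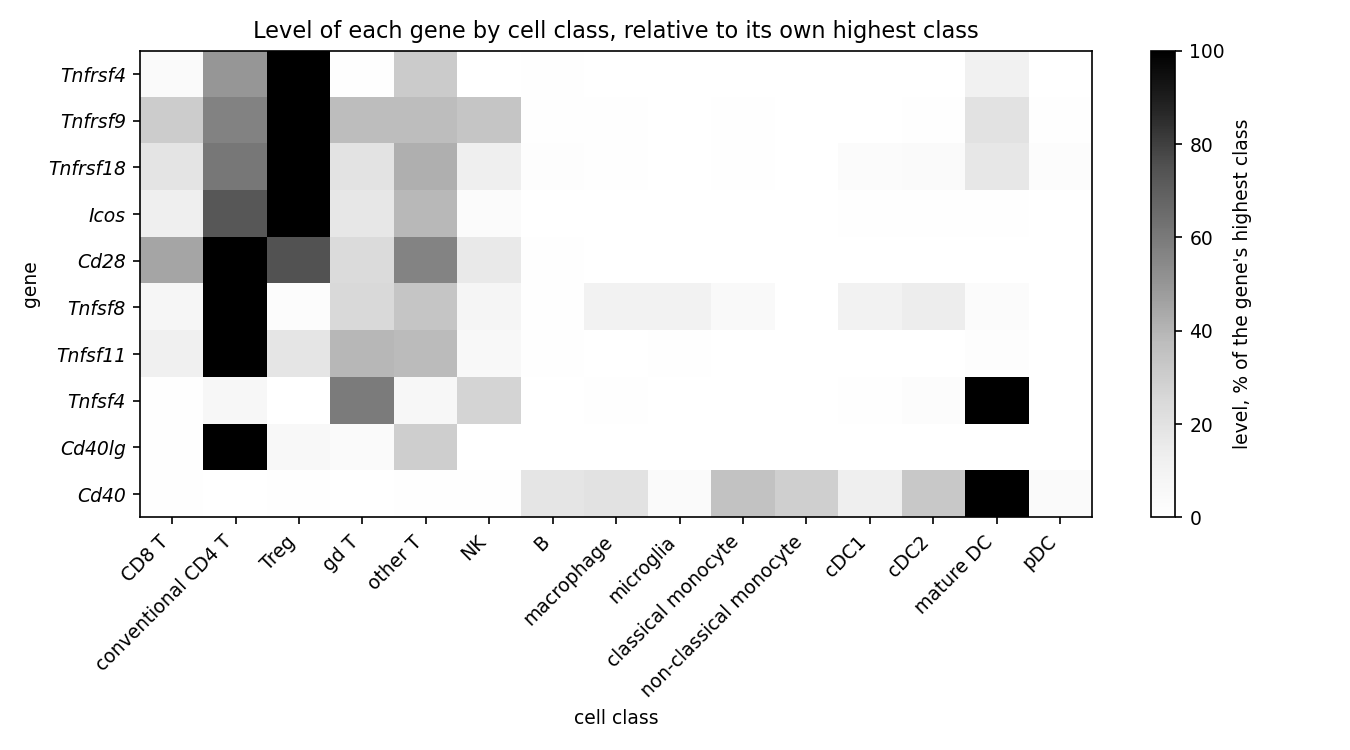
Level of each of the 10 genes (rows) in 15 cell classes (columns) as a percent of that gene's highest class, from the mean CPM over mice, with darker grey for higher. Tnfrsf4, Tnfrsf9, Tnfrsf18 and Icos reach 100% in Tregs, Cd40 reaches it in mature DCs, and classes of under 40 cells in all are left out.

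The first question was how the receptors divide between T cell subsets. Tregs exceeded conventional CD4 T cells of the same mice in 4 of the 5 receptors, and 7 of the 8 genes tested passed the threshold against 7.57% of all genes. Tnfrsf4, the receptor for OX40 ligand, was 2.04-fold higher in Tregs (log2 difference 1.03, SE 0.11, edgeR adjusted p = 1.04e-08). Tnfrsf9 was 2.25-fold higher (1.17, SE 0.16, adjusted p = 2.28e-06), Tnfrsf18, the GITR gene, 1.72-fold (0.78, SE 0.12, adjusted p = 8.42e-06) and Icos 1.51-fold (0.60, SE 0.13, adjusted p = 0.00189). Cd28, the receptor shared by naive and activated T cells, was the exception, with a log2 difference of -0.32 (95% interval -0.57 to -0.06, adjusted p = 0.170). Tregs were gated on Foxp3, which is at 0 in conventional CD4 T cells by that gate. The 4 Treg markers, Foxp3 among them, summed to 1785 to 2347 CPM in the conventional CD4 T cells of WT mice, from the other 3 genes, to 646.6 to 1933 CPM in those of KO mice, and to 4051 to 5994 CPM in Tregs. With conventional CD4 T cells that held a UMI of Ikzf2 (Helios, a Treg-associated factor) left out, an alternative chosen after seeing the data, the log2 differences were larger, at 2.14 for Tnfrsf4, 2.42 for Tnfrsf9, 1.53 for Tnfrsf18 and 1.45 for Icos.

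The ligands ran the other way. Tnfsf8, whose product binds CD30, was 22.6-fold lower in Tregs than in conventional CD4 T cells (log2 difference -4.50, SE 0.35, edgeR adjusted p = 1.17e-11). It had 0 UMIs in the Tregs of all 4 WT mice and 0 to 18.0 CPM in those of the KO mice. Conventional CD4 T cells had 31.1 to 284 CPM in WT mice 2 to 4 and 142 to 274 CPM in KO mice, without overlap with Tregs. How many of all genes lay without overlap between these classes was not counted. Of the 14 UMIs in Tregs most came from KO mouse 3, and without it the log2 difference was -6.28. Cd40lg, the helper signal to B cells and DCs, was 21.8-fold lower (-4.45, SE 0.47, adjusted p = 1.41e-08), with 5 UMIs in all Tregs and 167 in all conventional CD4 T cells. Without KO mouse 4 that difference was -5.05. Tnfsf11, known for osteoclast induction and for signals to DCs through RANK, was 5.63-fold lower (-2.49, SE 0.37, adjusted p = 6.65e-06). Tnfsf4 was not tested, with 0 UMIs in the Tregs of any mouse and 7 in conventional CD4 T cells.

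CD8 T cells were below conventional CD4 T cells in all 8 genes tested, where 16.8% of all genes passed and 11.4% were lower. The gap was widest for Cd40lg (58.5-fold, log2 difference -5.87, SE 0.44), Tnfsf8 (21.7-fold, -4.44, SE 0.25) and Tnfrsf4 (13.4-fold, -3.74, SE 0.20). Icos (5.09-fold), Tnfrsf18 (3.50-fold) and Tnfsf11 (7.19-fold) were intermediate, and Cd28 was 2.16-fold lower. Tnfrsf4 ranged from 15.98 to 119 CPM in the CD8 T cells of single mice and from 566 to 1013 CPM in conventional CD4 T cells. The smallest gap was that of Tnfrsf9, 1.63-fold lower in CD8 T cells (-0.71, SE 0.16, adjusted p = 0.000981), and it depended on the CD4 gate. When conventional CD4 T cells with a UMI of Ikzf2 were left out, the log2 difference turned to 0.53 (adjusted p = 0.224), and those of Tnfrsf4, Icos and Tnfrsf18 shrank to -2.75, -1.47 and -1.11, all still past the threshold.

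**Figure D2:**
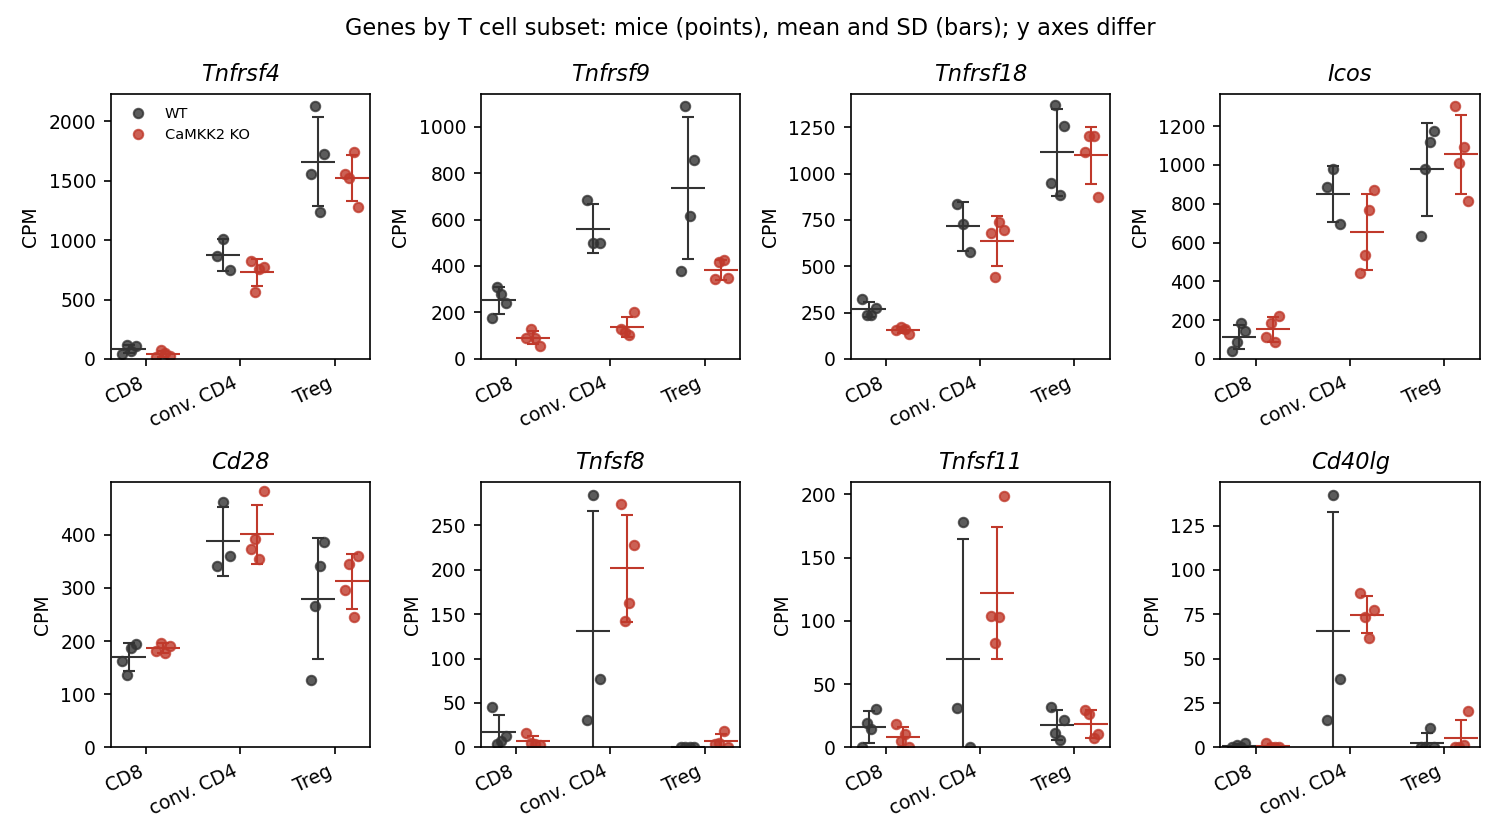
CPM of 8 of the genes in CD8 T cells, conventional CD4 T cells and Tregs, with 1 point per mouse (WT and CaMKK2 KO in separate colors) and the mean with its SD as bars, cut at 0, on y axes that differ between panels. Tnfrsf4, Tnfrsf18 and Icos climb from CD8 T cells to conventional CD4 T cells to Tregs, the ligands Tnfsf8, Tnfsf11 and Cd40lg are highest in conventional CD4 T cells by their means, and Tnfrsf9 separates the genotypes in CD8 and conventional CD4 T cells but not in Tregs, where WT mouse 1 lies within the KO range.

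Counting the 5 receptors of T cells (Tnfrsf4, Tnfrsf9, Tnfrsf18, Icos, Cd28) in single cells thinned to 3000 UMIs gave the same order of subsets. At least 4 of the 5 were detected in 79.4% of WT and 64.9% of KO Tregs, and in 39.4% of WT and 31.2% of KO conventional CD4 T cells. CD8 T cells mostly held fewer, with at least 2 in 50.5% of WT and 37.5% of KO cells. NK cells had at least 2 in 20.8% of WT and 17.8% of KO cells, and only 1 cell of 568 in WT and 1 of 805 in KO held 4. These shares pool the cells of 4 mice and carry no test. The exception is WT conventional CD4 T cells, which came from 3 mice and numbered 33 at that depth.

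Within CD8 T cells, the 4-1BB transcript was higher in the Tim-3 expressing state. Cells with a UMI of Havcr2, which encodes the inhibitory receptor Tim-3, exceeded cells with a UMI of Tcf7, a transcription factor of stem-like T cells (cells with both left out), in 2 of the 6 genes tested, where 6.67% of all genes passed. Tnfrsf9 was 4.47-fold higher (log2 difference 2.16, SE 0.26, edgeR adjusted p = 9.53e-15) and Icos 2.03-fold higher (1.02, SE 0.26, adjusted p = 0.0024). In WT mice 1 to 4, Tnfrsf9 stood at 505, 357.5, 361 and 354 CPM in Tim-3 expressing cells and at 13.9, 227, 163 and 31.2 CPM in Tcf7 expressing cells, so that the states did not overlap among WT mice. WT mouse 1 gave 4 Tim-3 expressing and 8 Tcf7 expressing cells. The Tim-3 expressing cells of KO mice, given below, lay within the range of the WT Tcf7 expressing cells. The share of all genes without overlap between the states was not counted. The Tcf7 expressing class was small, at 44 WT and 21 KO cells, and its KO cells had 0 UMIs of Tnfrsf9 and of Tnfrsf4 among 175683 UMIs, which allows up to 17.1 CPM over the group. Tnfrsf18 (0.09, 95% interval -0.30 to 0.48) and Cd28 (0.08, -0.33 to 0.50) did not pass. Without WT mouse 2 the Tnfrsf9 difference was 2.80. The Icos difference was 1.11 with an adjusted p of 0.0904 when mice with fewer than 10 cells were left out, and 0.91 with an adjusted p of 0.0556 without WT mouse 4.

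NK cells, which act without antigen receptors, carried the 4-1BB transcript near the level of CD8 T cells and less of the other receptors. Of the 8 genes tested 6 passed, against 31.3% of all genes. Tnfrsf4 was 12.4-fold lower in NK cells (log2 difference -3.64, SE 0.25), Icos 3.71-fold (-1.89, SE 0.16), Tnfsf11 2.48-fold (-1.31, SE 0.26) and Tnfrsf18 1.46-fold (-0.55, SE 0.10, edgeR adjusted p = 0.000162). Cd28 was lower as well, by a log2 difference of -1.43 (SE 0.10). Tnfrsf9 did not differ beyond the spread, with a log2 difference of 0.17 (95% interval -0.03 to 0.37, adjusted p = 0.220). The exception in the other direction was Tnfsf4, the ligand of OX40, 20.4-fold higher in NK cells (4.35, SE 0.42, adjusted p = 9.37e-08), with 138 UMIs in NK cells and 4 in CD8 T cells. Tnfsf8 missed the threshold (0.91, SE 0.36, adjusted p = 0.0596) and passed without WT mouse 1 (1.12, adjusted p = 0.00711) or KO mouse 1 (1.23, adjusted p = 0.0197). Only these 2 of the 8 fits without 1 mouse passed. The 8 ran from 0.62 to 1.23, with an edgeR adjusted p up to 0.262. Over all alternatives the lowest Tnfsf8 difference was 0.07.

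Antigen presenting cells carried CD40 and, after maturation, several of the TNF receptors. Mature DCs exceeded cDC2 in 5 of the 6 genes tested and were lower in the sixth, where 43% of all genes passed. Tnfrsf4 was 60.1-fold higher (log2 difference 5.91, SE 0.31, edgeR adjusted p = 7e-15), Tnfrsf9 34.6-fold (5.11, SE 0.33, adjusted p = 8.15e-13), Tnfsf4 25.9-fold (4.69, SE 0.57, adjusted p = 1.24e-07), Tnfrsf18 4.49-fold (2.17, SE 0.17) and Cd40 3.31-fold (1.73, SE 0.20). Tnfrsf4 ranged from 93.2 to 390.3 CPM in the mature DCs of single mice and from 0 to 12.2 CPM in their cDC2, without overlap. The lowest of these mature DC values was that of WT mouse 1, from 3 cells. The share of all genes without overlap between these classes was not counted. The 8 T cell markers summed to 0 to 55.8 CPM in mature DCs against 4903 to 8477 CPM in CD8 T cells, and the 4 Treg markers summed to 101.9 to 232.9 CPM in WT and 41.94 to 301.7 CPM in KO mature DCs, against 24.26 to 36.98 and 23.41 to 86.14 CPM in cDC2. The part of RNA from Tregs in these receptors was not tested. The Tnfsf4 difference was 5.51 without WT mouse 2. Tnfsf8 was 4.42-fold lower in mature DCs (-2.14, SE 0.60, adjusted p = 0.00511), where 10 UMIs were found in the WT and 0 in the KO cells. WT mouse 4 held 39.9 CPM and the other 7 mice 0 to 3.01 CPM, and without WT mouse 4 the log2 difference was -4.77.

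The GITR transcript was also higher in cDC2 than in macrophages. It was not particular to cDC2, where its mean was 44.0 CPM. Conventional type 1 DCs (cDC1) had 35.4, plasmacytoid DCs 27.7 and mature DCs 194 CPM. Of 7 genes tested 3 passed, a share near the 40.4% of all genes, so that the count does not set the 10 genes apart. Against macrophages, Tnfrsf18 was 10.4-fold higher in cDC2 (log2 difference 3.38, SE 0.24, edgeR adjusted p = 1.2e-09), Icos 3.91-fold (1.97, SE 0.55, adjusted p = 0.00798) and Cd40 1.59-fold (0.67, SE 0.14, adjusted p = 0.000786). Tnfrsf18 lay between 18.3 and 57.1 CPM in the cDC2 of single mice and between 1.94 and 7.66 CPM in their macrophages. Icos, by contrast, rested on 19 UMIs in cDC2. The Cd40 difference was 0.60 with an adjusted p of 0.287 when the mouse was not kept as a block. B cells differed from macrophages in 2 of 6 genes, where 50.8% of all genes passed: Tnfrsf18 was 3.37-fold higher (1.75, SE 0.38, adjusted p = 0.000154) and Tnfsf8 15.1-fold lower (-3.92, SE 0.65, adjusted p = 2.17e-06), from 2 UMIs in B cells, of which WT mouse 3 and KO mouse 3 held 1 each. Leaving out one or the other widened the Tnfsf8 difference, which was -4.80 without KO mouse 3. Cd40 did not differ between B cells and macrophages beyond the spread (-0.13, 95% interval -0.51 to 0.25). Tnfrsf4 missed the threshold (1.16, adjusted p = 0.0828) and passed without KO mouse 4 (1.63, adjusted p = 0.0147). That was the only 1 of 8 fits without 1 mouse to pass. The 8 ran from 0.72 to 1.63, with an edgeR adjusted p up to 0.373.

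The main question of the design was which of these genes differ between WT and CaMKK2 KO mice. Tnfrsf9 was lower in the KO mice in CD8 T cells, conventional CD4 T cells, Tregs and NK cells, and in each of these classes it was past the threshold. In CD8 T cells it stood at 174.7, 311, 280.1 and 242 CPM in WT mice 1 to 4 and at 90.1, 128, 90.9 and 57.3 CPM in KO mice 1 to 4. All 4 KO mice were below all 4 WT mice, as in 3.12% of all genes tested. The means of 252 ± 58.8 and 91.6 ± 28.9 CPM (SD, n = 4 mice each) corresponded to a 2.82-fold lower level (log2 difference -1.50, SE 0.18, edgeR adjusted p = 8.53e-05). It was 1 of 2 members called among the 7 tested in this class, against 1.62% of all genes, of which 0.72% were lower. The log2 difference was -1.62 in Tim-3 expressing CD8 T cells alone, an alternative chosen after seeing the data, and the level was 505, 357.5, 361 and 354 CPM in the WT and 115, 172, 114 and 71.9 CPM in the KO mice of that subset. The 505 CPM of WT mouse 1 came from 4 cells.

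In NK cells Tnfrsf9 was measured at 269, 248, 286 and 229 CPM in WT mice 1 to 4 and at 109.7, 149, 132 and 91.7 CPM in KO mice 1 to 4. The lowest WT mouse was above the highest KO mouse, as in 3.36% of all genes tested. The level was 2.09-fold lower in KO (-1.07, SE 0.14, edgeR adjusted p = 0.000562), and 2 of the 8 genes tested were called, against 2.7% of all genes. Since NK cells of WT mice were deeper (median 8494 UMIs against 6469), the share of cells with a Tnfrsf9 UMI was also taken at 3000 UMIs per cell, where it was 32.9% in WT and 21.9% in KO (60.2% and 39.7% before thinning). In CD8 T cells the thinned shares were 36.3% and 18.3% (66.3% and 44.2% before), at median depths of 10625 and 12108 UMIs. In B cells, which should lack the gene, 1.19% of WT and 2.58% of KO cells held a UMI, at median depths of 3561 and 4990 UMIs, well under the shares in T and NK cells.

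Tregs had 381, 1091, 616 and 857 CPM of Tnfrsf9 in WT mice 1 to 4 and 344, 415, 428 and 350.4 CPM in KO mice 1 to 4. Here the genotypes overlapped, since WT mouse 1, with 6 Tregs, lay within the KO range. The level was 2.05-fold lower in KO (log2 difference -1.03, SE 0.20, edgeR adjusted p = 0.00671), the only call among 5 genes tested, against 0.686% of all genes. Without WT mouse 2 the difference was -0.80 with an adjusted p of 0.0602, and without KO mouse 1 it was -0.97 with an adjusted p of 0.0657. Conventional CD4 T cells had 683, 498 and 501 CPM in WT mice 2 to 4 and 130.2, 114, 103 and 202 CPM in KO mice 1 to 4, without overlap, as in 6.68% of all genes tested. That was a 4.19-fold lower level in KO (-2.07, SE 0.26, adjusted p = 0.000626), the only call among 8 genes tested, against 0.466% of all genes. It rested on 37 WT cells. Of these 16, and 106 of the 226 KO cells, held no UMI of Ikzf2. In those cells Tnfrsf9 was detected in 2 of 16 WT and 28 of 106 KO cells, a larger share in KO, at median depths of 5511 and 8120 UMIs. The log2 difference ran the other way, at -1.49 with an edgeR adjusted p of 0.483, and its WT side rested on those 2 cells.

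**Figure D3:**
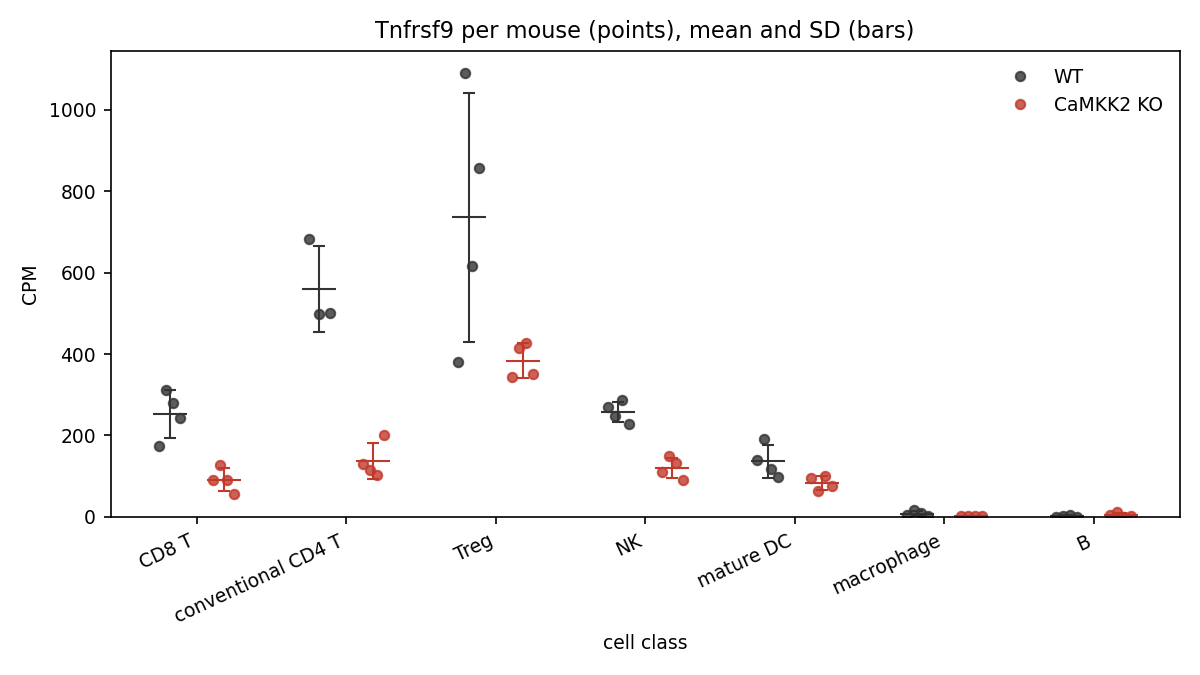
Tnfrsf9 in CPM in 7 cell classes, with 1 point per mouse (WT and CaMKK2 KO in separate colors) and the mean with its SD as bars. The KO mice lie below the WT mice in CD8 T cells, conventional CD4 T cells and NK cells, the groups overlap in Tregs and mature DCs, and levels in macrophages and B cells are far lower than in the other classes.

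In mature DCs and macrophages the same gene was lower in the KO means without passing the threshold. Mature DCs had 139.8, 192, 117 and 97.5 CPM in WT mice 1 to 4 and 94.4, 63.7, 99.8 and 74.7 CPM in KO mice 1 to 4, where only KO mouse 3 exceeded a WT mouse. WT mouse 1 gave 3 mature DCs. The log2 difference was -0.73 (SE 0.28, edgeR adjusted p = 0.350). In macrophages Tnfrsf9 was low, at 5.06, 16.6, 8.25 and 2.18 CPM in WT and 0.939, 1.35, 1.22 and 1.04 CPM in KO mice, with all KO mice lower, as in 9.03% of all genes tested (-2.77, SE 0.62, adjusted p = 0.0516, and 0.0139 without WT mouse 4). Only that 1 of the 8 fits without 1 mouse passed. The 8 ran from -3.09 to -2.14, with an edgeR adjusted p up to 0.132. These macrophage levels were far below those of T and NK cells.

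Of the other TNF receptors of T cells, Tnfrsf18 in CD8 T cells was the only call. The transcript stood at 323, 239, 237 and 272 CPM in WT mice 1 to 4 and 158, 175, 159 and 133 CPM in KO mice 1 to 4, without overlap, as in 3.12% of all genes tested. It was 1.65-fold lower in KO (log2 difference -0.72, SE 0.13, edgeR adjusted p = 0.00619, and -0.58 with 0.183 when cells were weighted equally in limma). In Tregs the GITR transcript differed by -0.04 (95% interval -0.33 to 0.25), in conventional CD4 T cells by -0.17 (-0.58 to 0.25) and in NK cells by -0.23 (-0.46 to 0.01). Tnfrsf4 in CD8 T cells was 45.3, 119, 69.3 and 108 CPM in WT mice 1 to 4 and 15.98, 71.99, 51.5 and 22.9 CPM in KO mice 1 to 4, with overlap. The log2 difference of -1.21 (SE 0.32) missed the threshold (adjusted p = 0.0597) and reached it without KO mouse 2 (-1.52, adjusted p = 0.0158). Of the 8 fits without 1 mouse only that 1 passed, and the weakest was -0.86 (edgeR adjusted p up to 0.201). It was -1.78 (adjusted p = 0.00137) in Tim-3 expressing CD8 T cells alone, an alternative chosen after seeing the data. In all, 4 of 16 alternatives passed. The weakest difference among them was -0.69, and the adjusted p reached 0.506. In Tregs, where OX40 was highest, the difference was -0.13 (95% interval -0.40 to 0.15). In CD8 T cells the cycling markers summed to 51.8 to 435 CPM in WT and 359 to 749 CPM in KO mice, and their part in these differences was not tested.

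The immunoglobulin family receptors showed no genotype call in any T or NK class. Icos in CD8 T cells was 38.8, 88.9, 183 and 145 CPM in WT mice 1 to 4 and 111, 184, 88.8 and 222 CPM in KO mice 1 to 4, widely overlapping. Its log2 difference was 0.13 (95% interval -0.42 to 0.69), and in Tregs it was 0.06 (-0.24 to 0.36). Cd28 varied little, from 136 to 195 CPM in the CD8 T cells of WT and 177 to 197 CPM in those of KO mice. The difference was 0.11 (95% interval -0.15 to 0.37, edgeR adjusted p = 0.788). Over all T cells Icos differed by 0.69 (95% interval 0.20 to 1.18, adjusted p = 0.184) and Cd28 by 0.45 (0.09 to 0.81, adjusted p = 0.236). Both genes were lower in CD8 than in conventional CD4 T cells, which made up more of the T cells in KO mice. Such a sum does not tell more cells of a subset from more RNA per cell.

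**Figure D4:**
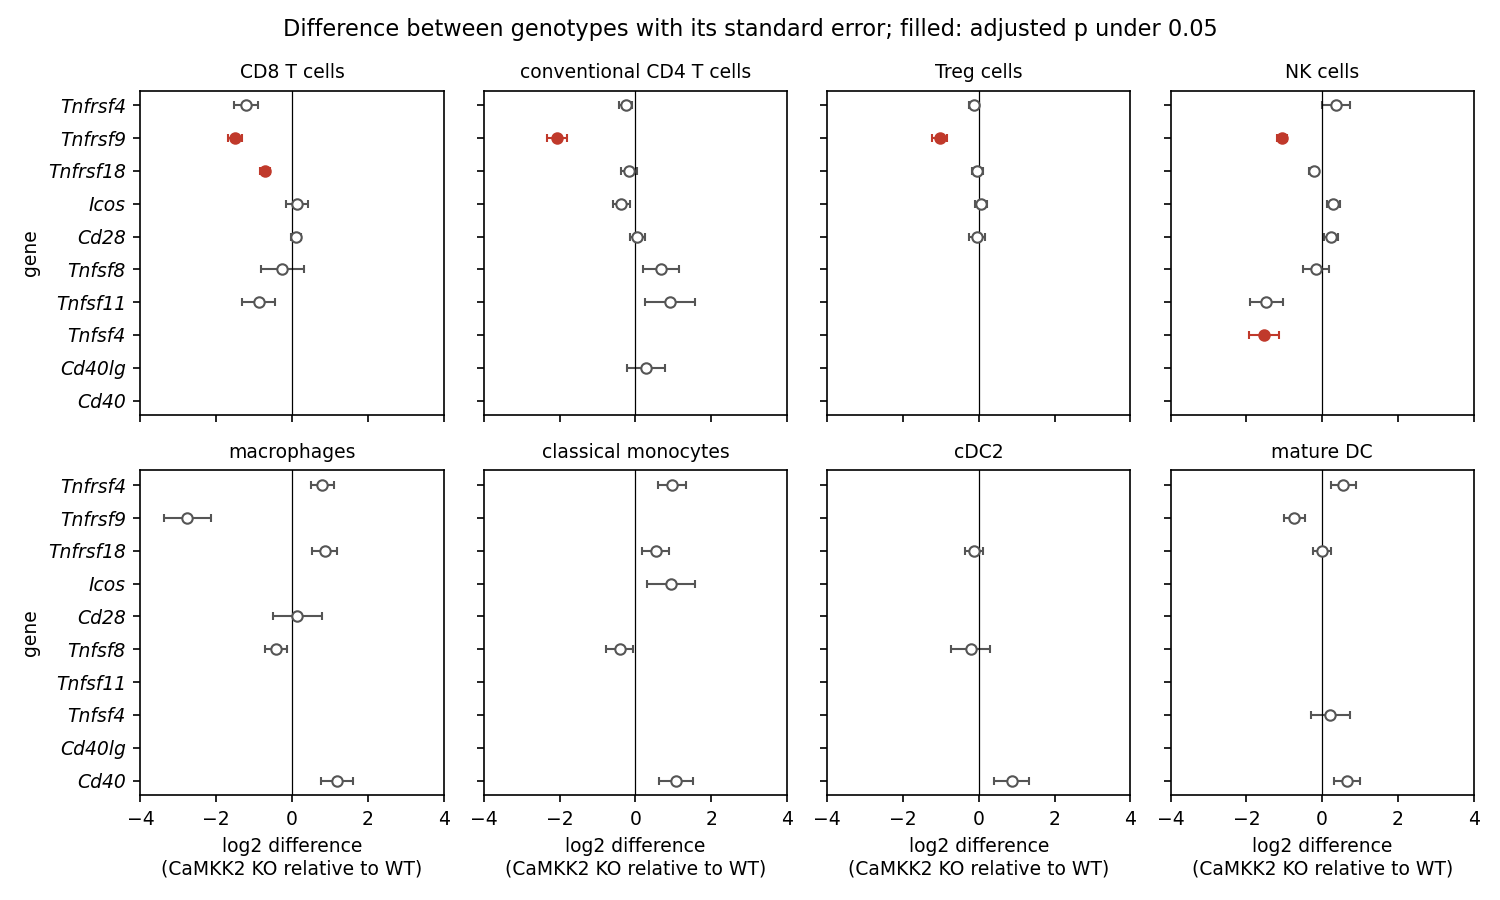
Log2 difference of each gene tested, CaMKK2 KO relative to WT, in 8 cell classes, with its standard error as the bar and filled points for an adjusted p under 0.05. Tnfrsf9 is left of 0 and filled in the 4 lymphocyte panels, Tnfrsf18 in CD8 T cells and Tnfsf4 in NK cells are the other filled points, and Cd40 is right of 0 without being filled in the myeloid panels.

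Whether the genotype difference itself varied between subsets was tested by interaction terms. None of the 8 genes passed between Tregs and conventional CD4 T cells (2 at an unadjusted p under 0.05, 0 by DESeq2). None passed between CD8 and conventional CD4 T cells either (4 at an unadjusted p under 0.05, 0 by DESeq2). Over all genes 0.108% and 0.601% passed, and 423 of 7400 and 791 of 9151 had an unadjusted p under 0.05. For Tnfrsf9 the terms were 0.98 (SE 0.28, edgeR adjusted p = 0.439) and 0.55 (SE 0.28, adjusted p = 0.573). For Tnfrsf4 the term between CD8 and conventional CD4 T cells was -1.05 (SE 0.30, adjusted p = 0.0836), and for Tnfsf11 it was -1.90 (SE 0.61, adjusted p = 0.178). The Tnfrsf4 term passed without WT mouse 3, KO mouse 2 or KO mouse 3 (-1.38, -1.54 and -1.23, adjusted p 8.46e-06 to 0.0379). The Tnfsf11 term passed without WT mouse 3 (-4.22, adjusted p = 0.00322) or KO mouse 1 (-2.44, adjusted p = 0.0146). Each term was fitted 7 times with 1 mouse left out. For Tnfrsf4 3 of these fits passed, with terms from -1.54 to -0.61 and an edgeR adjusted p up to 0.538. For Tnfsf11 2 passed, with terms from -4.22 to -0.85 and an edgeR adjusted p up to 0.801.

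Among the ligands, Tnfsf4 in NK cells fell while the helper ligands rose in the sum over all T cells. Tnfsf4 was 12.7, 14.1, 18.6 and 12.7 CPM in the NK cells of WT mice 1 to 4 and 1.90, 3.33, 8.80 and 1.48 CPM in those of KO mice 1 to 4, without overlap, as in 3.36% of all genes tested. It was 2.90-fold lower (log2 difference -1.53, SE 0.38, edgeR adjusted p = 0.0473), from 95 UMIs in WT and 43 in KO. KO mouse 3 was the highest KO mouse, and without it the difference was -2.49 (adjusted p = 0.0012). The call was lost without any mouse other than KO mouse 3 (adjusted p 0.0708 to 0.167), with TMM scaling (0.0545) and with limma (0.121). The mature DC markers summed to 8.78 to 188 CPM in WT and 3.85 to 8.24 CPM in KO NK cells, and their part was not tested. Tnfsf11 in NK cells was 4.77, 11.1, 5.52 and 11.4 CPM in WT and 3.17, 0.951, 4.40 and 2.96 CPM in KO mice, all KO mice being lower, as in the same 3.36%, and missed the threshold (-1.47, SE 0.44, adjusted p = 0.0952), but passed without KO mouse 3 (-1.99, adjusted p = 0.0283). That was the only 1 of 8 fits without 1 mouse to pass. The 8 ran from -1.99 to -1.15, with an edgeR adjusted p up to 0.267.

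Over all T cells, 3 of 8 genes were called, against 2.12% of all genes. At an unadjusted p under 0.05 there were 6 of the 8, and 1590 of 9829 over all genes. Among the 6 was Tnfsf11 (log2 difference 0.80, SE 0.24, edgeR adjusted p = 0.103), which was -0.88 in CD8 T cells (SE 0.44, adjusted p = 0.375). Tnfrsf9 was 2.38-fold lower in KO (log2 difference -1.25, SE 0.13, edgeR adjusted p = 6.72e-05). Tnfsf8 was 58.2, 15.1, 21.2 and 15.9 CPM in WT mice 1 to 4 and 48.5, 74.8, 36.1 and 70.2 CPM in KO mice 1 to 4, with WT mouse 1 inside the KO range (1.45, SE 0.31, adjusted p = 0.0289). Cd40lg was 0, 3.90, 7.82 and 4.60 CPM in WT and 13.2, 43.1, 10.0 and 24.9 CPM in KO mice, without overlap, as for 8.15% of all genes in this direction (2.10, SE 0.51, adjusted p = 0.0481). Both ligands were highest in conventional CD4 T cells, and these made up 0, 5.70, 5.14 and 6.85% of the T cells in WT mice 1 to 4 and 16.5, 44.9, 16.1 and 31.3% in KO mice 1 to 4. Within conventional CD4 T cells the log2 differences were 0.67 for Tnfsf8 (95% interval -0.24 to 1.58) and 0.28 for Cd40lg (-0.69 to 1.25), neither past the threshold. In a sum over all T cells, more cells of a subset and more RNA per cell cannot be told apart. The Tnfsf8 call held without WT mouse 1 or KO mouse 3 and was lost without any other mouse (edgeR adjusted p 0.0509 to 0.151). It was also lost by DESeq2 (1.11, adjusted p = 0.344), with limma (0.319) and with outlying cells kept (0.0562). The Cd40lg call held without KO mouse 1 or KO mouse 3 and was lost without any other mouse (adjusted p 0.0546 to 0.166). Its difference was 1.49 without KO mouse 2. Further settings that lost the Cd40lg call were TMM scaling (adjusted p 0.05235), a minimum of 200 UMIs (0.05985), no removal by Scrublet score (0.0888) and limma (0.0973).

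Cd40, the receptor through which helper T cells act on antigen presenting cells, had a higher mean in KO mice in every class of these cells tested, and in none did it pass the threshold. Classical monocytes had 7.73, 60.3, 125 and 99.2 CPM in WT mice 1 to 4 and 128, 219.9, 100.4 and 208 CPM in KO mice 1 to 4 (log2 difference 1.07, SE 0.46, edgeR adjusted p = 0.284). B cells had 39.4, 33.2, 51.3 and 16.9 CPM in WT and 37.0, 112, 79.3 and 141 CPM in KO mice (1.39, SE 0.39, adjusted p = 0.0669). In both classes 1 KO mouse lay among the WT mice. Macrophages had 13.7, 47.5, 66.3 and 38.8 CPM in WT and 71.2, 108, 56.6 and 144 CPM in KO mice (1.18, SE 0.43, adjusted p = 0.160). The values of cDC2 (0.87, SE 0.46, adjusted p = 0.469) and of mature DCs (0.65, SE 0.35, adjusted p = 0.555) overlapped as well. WT mouse 1 was the lowest WT mouse in monocytes, macrophages, cDC2 and mature DCs, and the B cell difference passed without KO mouse 1 (1.63, adjusted p = 0.0109) or KO mouse 3 (1.44, adjusted p = 0.0451). Only these 2 of the 8 B cell fits without 1 mouse passed. The 8 ran from 1.07 to 1.63, with an edgeR adjusted p up to 0.256.

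**Figure D5:**
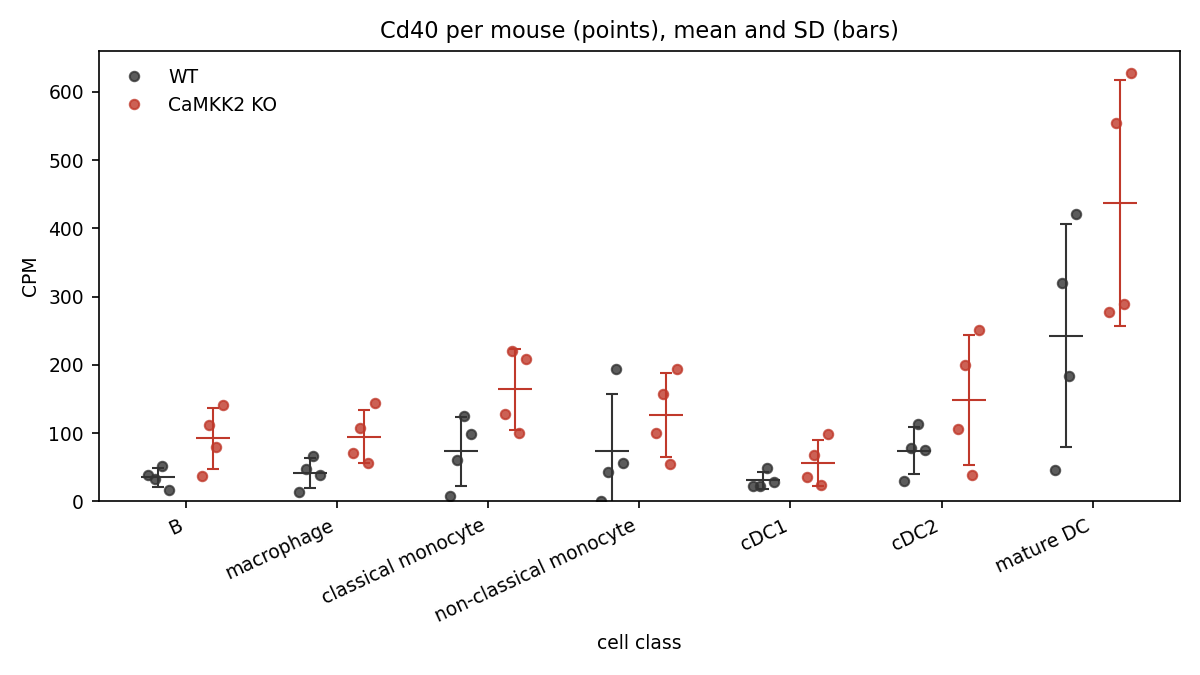
Cd40 in CPM in B cells and 6 myeloid classes, with 1 point per mouse (WT and CaMKK2 KO in separate colors) and the mean with its SD as bars. Mature DCs reach 628.3 CPM in a KO mouse, and the genotypes overlap in B cells, macrophages, classical monocytes, cDC2 and mature DCs, where the KO means are higher.

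The counts of genes called in these antigen presenting classes were 0 of 1 tested in B cells, 0 of 6 in macrophages, 0 of 5 in classical monocytes, 0 of 3 in cDC2 and 0 of 5 in mature DCs. Over all genes 2.51%, 2.33%, 1.99%, 1.11% and 0.487% were called in the same order. At an unadjusted p under 0.05 the edgeR counts were 1, 4, 2, 0 and 1. Over all genes 740 of 4339, 2351 of 11230, 1563 of 9726, 943 of 7574 and 497 of 4722 reached it, in the same order. In macrophages these included Tnfrsf4 (log2 difference 0.80, SE 0.31, edgeR adjusted p = 0.184) and Tnfrsf18 (0.86, SE 0.33, adjusted p = 0.175). Every KO mouse was above every WT mouse for that Tnfrsf4, as in 4.13% of all genes tested. In classical monocytes they included Tnfrsf4 (0.97, SE 0.37, adjusted p = 0.230). DESeq2 called 1 gene, Tnfrsf9, in macrophages (-2.72, adjusted p = 0.000353) and 0 in the other 4 classes. In macrophages DESeq2 called 659 of all genes, where edgeR called 262.

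A further pair of lists, of 20 binding partners and related costimulatory molecules and of 31 signalling genes downstream of the receptors, were followed through the same tests. In CD8 T cells edgeR called 1.62% of all genes, 0.72% being lower in KO, and 1247 of 8752 had an unadjusted p under 0.05. Of 12 partners there 0 were called by edgeR (4 at an unadjusted p under 0.05, 1 by DESeq2). In the same cells 2 of 31 signalling genes were lower in KO by edgeR (7 at an unadjusted p under 0.05, 0 by DESeq2). These were Birc2, an adaptor-bound ubiquitin ligase of the TNF receptor complexes (log2 difference -0.70, SE 0.17, edgeR adjusted p = 0.0437), and Nfkb2, the NF-kappaB subunit of the non-canonical arm (-0.76, SE 0.19, adjusted p = 0.0498). In NK cells edgeR called 2.7% of all genes, and 1577 of 9510 had an unadjusted p under 0.05. Of 10 partners there 0 were called by edgeR (6 at an unadjusted p under 0.05, 0 by DESeq2). Of 31 signalling genes 2 were called in NK cells (8 at an unadjusted p under 0.05, 2 by DESeq2). Bcl2a1b was lower (-1.32, SE 0.19, edgeR adjusted p = 0.00133) and Pik3r1, a regulatory subunit of phosphoinositide 3-kinase, higher (0.68, SE 0.15, adjusted p = 0.0251). Bcl2a1b and Bcl2a1d are near-identical copies whose UMIs can be split between them, so that this value is uncertain. In conventional CD4 T cells, Tregs, B cells and mature DCs edgeR and DESeq2 called 0 genes of either list. At an unadjusted p under 0.05 there were 2, 3, 1 and 0 partners and 4, 5, 6 and 3 signalling genes. Over all genes 634 of 5580, 595 of 5250, 740 of 4339 and 497 of 4722 reached that p, in the same order. The medians of the lists in CD8 T cells were -0.72 for the 7 members tested, -0.14 for the partners and -0.13 for the signalling genes, beside 0.05 over all genes.

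Single partners were called in other classes. Cd2, an adhesion and costimulatory receptor, was higher over all T cells of KO mice (log2 difference 0.57, SE 0.13, edgeR adjusted p = 0.0329), the only call among 15 partners and 31 signalling genes. Cd2 was also lower in CD8 than in conventional CD4 T cells (-1.23, SE 0.13), and the latter made up more of the T cells in KO mice. No partner was called by edgeR between genotypes within CD8 T cells, conventional CD4 T cells or Tregs. For Cd2 too, more cells of a subset and more RNA per cell cannot be told apart. Tnfsf9, the ligand of 4-1BB, was lower in the cDC2 of KO mice (-0.98, SE 0.20, adjusted p = 0.0349), 1 of 7 partners tested. Cd80, a ligand of CD28 and CTLA-4, was lower in classical monocytes of KO mice (-1.27, SE 0.24, adjusted p = 0.0224), 1 of 12. Ctla4, which competes with CD28 for its ligands, was higher in macrophages of KO mice (1.99, SE 0.39, adjusted p = 0.0305), 1 of 13, from 123 UMIs. The 8 T cell markers summed to 13.34 to 16.06 CPM in the macrophages of WT and 23.75 to 31.33 CPM in those of KO mice, every KO mouse being higher, and their part in the Ctla4 difference was not tested. Of the signalling genes edgeR called 0 in all T cells, cDC2, classical monocytes and macrophages. In that order 3, 4, 2 and 9 had an unadjusted p under 0.05, and DESeq2 called 0, 2, 0 and 1. Over all genes 1590 of 9829, 943 of 7574, 1563 of 9726 and 2351 of 11230 had an unadjusted p under 0.05. The shares of all genes called by edgeR were 2.12%, 1.11%, 1.99% and 2.33%.

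The lists were also counted between cell classes, where many more of all genes passed than between genotypes: 43% for mature DCs against cDC2, 7.57% for Tregs and 16.8% for CD8 against conventional CD4 T cells, 31.3% for NK against CD8 T cells and 6.67% for Tim-3 against Tcf7 expressing CD8 T cells. Mature DCs exceeded cDC2 in 6 of 8 partners and 17 of 28 signalling genes and were lower in 1 and 6, among them Cd70, the ligand of CD27 (log2 difference 7.66, SE 0.54), Cd80 (2.94, SE 0.23), Relb, the non-canonical NF-kappaB partner (3.41, SE 0.16), Birc2 (3.28, SE 0.15) and Traf1, a TRAF adaptor (2.58, SE 0.15). Cd48, a ligand of CD2, was lower (-1.71, SE 0.20). Tregs exceeded conventional CD4 T cells in 4 of 11 partners, Ctla4 (1.06, SE 0.12), Cd27 (1.00, SE 0.17), Tnfrsf1b (0.99, SE 0.16) and Cd2 (0.54, SE 0.10), and were lower in 1. Of the 31 signalling genes 1 was higher in Tregs and 4 were lower. CD8 T cells were below conventional CD4 T cells in 6 of 13 partners and 14 of 31 signalling genes and above in 1 and 2. NK cells were below CD8 T cells in 9 of 12 partners and above in 0, and of the 31 signalling genes 10 were higher and 8 lower in NK cells. Tim-3 expressing CD8 T cells exceeded Tcf7 expressing ones in 3 of 11 partners, Ctla4, Cd86 and Cd80, and 3 of 31 signalling genes, with 1 lower.

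By the Pearson correlation of log2(CPM + 10) over the 17 class means, among 11121 genes, the closest gene to Tnfrsf4 was Slamf1, a costimulatory receptor of lymphocytes (r = 0.960), to Tnfrsf9 Rbl2 (r = 0.943), to Tnfrsf18 Isy1 (r = 0.942), to Icos Xlr4c (r = 0.986), to Cd28 Zap70, the kinase of the T cell receptor (r = 0.9897), and to Cd40 Hotairm1 (r = 0.899). These are descriptions over 17 classes that share mice and libraries.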

How the data were processed

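Live CD45+ cells of 4 WT and 4 CaMKK2 KO mice were profiled in 2 channels. Per the labels and the submitters' processing notes, the authors made the deposited UMI counts with bcl2fastq 2.20, Cell Ranger 4.0.0 and STAR 2.7.5c on mm10, and these count matrices and hashtag counts are raw. Here hashtags were assigned with Seurat 5.3.0 (HTODemux, quantile 0.99), and 5974 WT and 6696 KO singlets were found in 6689 and 7271 barcodes. Cells over 3 median absolute deviations from the median (scuttle 1.12.0) and those with the highest Scrublet scores (222 WT, 169 KO; scanpy 1.11.5) were removed. Classes were gated on marker UMIs, with at least 4 Cd3d, Cd3e and Cd3g UMIs for T cells. The cuts on marker UMIs were set after seeing the data, and 81 cells had 3 or 4 such UMIs beside 1567 with 4 or more. Sums of UMIs for each class in each mouse were compared with edgeR 4.0.16 (genes of at least 50 UMIs, class totals as library sizes), with the mouse as a block between classes. DESeq2 1.42.0, limma 3.58.1, TMM scaling, other filters and leaving out each mouse were alternatives. On simulated counts the scripts were tested first. Mice are named by hashtag, so a p-value measures the spread between mice within a channel. Intervals are at 95% by a normal approximation from the SE, which makes them narrower than the edgeR tests allow for so few mice. An interval that leaves out 0 can therefore go with an unadjusted p above 0.05. Floors of 3 UMIs cover counting error only. All 10 genes were followed in every class, but not every value is printed, and silence on a gene does not mean that it did not differ. From the partner and signalling lists come the counts and at most 4 called genes of lowest adjusted p. For likeness, genes of at least 200 UMIs were used. The genes, lists and tests were chosen with earlier results of these data known.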

Additional observations from a re-analysis of the deposited data

Results flagged for a closer look

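In 104 groups of 4 mice, 1 mouse stood apart from the other 3 by Dixon's test in 6, and chance alone gives about 1 in 20. Tnfrsf9 over all T cells was 410 CPM in WT mouse 2 against 308 to 320 CPM in the other WT mice, on the side away from the KO mice. Tnfsf8 over all T cells was 58.2 CPM in WT mouse 1, which gave 39 T cells, against 15.1 to 21.2 CPM in the other WT mice. In NK cells KO mouse 3 had 118 CPM of Tnfrsf18 against 134 to 135.6 CPM, and 21.4 CPM of Tnfsf8 against 10.3 to 10.9 CPM, in the other KO mice. Tnfrsf4 in macrophages was 5.57 CPM in KO mouse 4 against 2.85 to 3.08 CPM in the other KO mice, beside a mean of 7.07 CPM in B cells. Tnfsf4 in mature DCs was 93.2 CPM in WT mouse 1, from 3 cells, against 15.1 to 26.6 CPM in the other WT mice.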

How the results depend on the processing

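Of 43 called log2 differences, 32 were called in every alternative run and 1 changed sign, and 153 of 169 counts of genes called among the 10 stayed within 1.5 times. Tnfrsf9 passed in all T cells, CD8 T cells and NK cells in every alternative run. With cells weighted equally in limma the count of the 10 genes called between genotypes was 1 over all T cells, 1 in CD8 T cells, 0 in Tregs and 1 in NK cells. DESeq2 gave 0 in Tregs (Tnfrsf9 -0.95, adjusted p = 0.0631) and 1 in macrophages. A minimum of 200 UMIs gave 0 in Tregs and 1 in NK cells, TMM scaling gave 1 in NK cells, and a minimum of 10 UMIs gave 1 in B cells and 1 in macrophages. For the interaction between CD8 and conventional CD4 T cells the count was 2 with TMM scaling and 2 with a minimum of 10 UMIs. With mice of fewer than 10 cells left out, 1 gene was called between Tim-3 and Tcf7 expressing CD8 T cells. Without Ikzf2 UMIs in conventional CD4 T cells, an alternative chosen after seeing the data, the count was 0 in that class and 1 for the interaction with CD8 T cells, Tnfrsf9 turned to 0.53 for CD8 against conventional CD4 T cells, and its interaction with CD8 T cells turned to -0.0878. The cause was not tested. Leaving out each mouse in turn, the counts between genotypes ranged from 1 to 3 over all T cells, 2 to 3 in CD8 T cells, 1 to 1 in conventional CD4 T cells, 0 to 1 in Tregs, 1 to 3 in NK cells, 0 to 1 in B cells and 0 to 1 in macrophages. Between classes they ranged from 6 to 7 for NK against CD8 T cells, 1 to 3 for Tim-3 against Tcf7 expressing cells, 3 to 4 for cDC2 and 2 to 3 for B cells against macrophages, 5 to 6 for mature DCs against cDC2, and 0 to 2 for the interaction with CD8 T cells. Over all genes the counts called between genotypes also moved, from 80 to 269 around 208 over all T cells, 34 to 191 around 142 in CD8 T cells, 19 to 54 around 26 in conventional CD4 T cells, 8 to 75 around 36 in Tregs, 179 to 437 around 257 in NK cells, 9 to 162 around 109 in B cells, 213 to 659 around 262 in macrophages, 124 to 385 around 194 in classical monocytes and 4 to 36 around 23 in mature DCs. Between classes they ran from 312 to 709 around 560 for Tregs and 749 to 1886 around 1537 for CD8 against conventional CD4 T cells, from 145 to 595 around 529 for Tim-3 against Tcf7 expressing cells, and for the interactions from 2 to 43 around 8 and from 8 to 172 around 55.

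No paired analysis was possible because hashtag numbers do not pair WT with KO mice. Between classes of the same mice the fit without the replicate block called 7 of 8 genes for Tregs and 7 of 8 for CD8 against conventional CD4 T cells, where Tnfrsf9 was lost (-0.46, adjusted p = 0.525), 6 for NK against CD8 T cells, 2 for Tim-3 against Tcf7 expressing cells, 2 for cDC2 against macrophages, 6 for mature DCs against cDC2 and 2 for B cells against macrophages. Shares of all genes called without the block are not given, so those counts do not set the 10 genes apart from all genes. Depth limited several tests, since Tnfsf4 had 95 UMIs in WT and 43 in KO NK cells, Cd40lg had 12 in WT conventional CD4 T cells, and in B cells 1 of the 10 genes had the 50 UMIs needed for a test between genotypes. With cells weighted equally in limma, differences between classes were smaller for low genes, such as 0.57 in place of 4.35 for Tnfsf4 in NK against CD8 T cells and 0.31 in place of 1.97 for Icos in cDC2 against macrophages, both still past the threshold.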

Other observations

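T cells outside the CD8, CD4, Treg and gamma-delta gates, 108 WT and 127 KO cells, held Tnfrsf4 at 494, Tnfrsf18 at 465, Icos at 396 and Tnfrsf9 at 209 CPM over all mice, each between the levels of CD8 and conventional CD4 T cells. Gamma-delta T cells, 24 WT and 47 KO cells, held Tnfrsf9 at 1190 CPM in WT mouse 1, which gave 2 of them, and at 0 to 192 CPM in the other 7 mice. Their Tnfrsf18 was 506 CPM in that mouse and 88.1 to 268 CPM in the others, and Tnfsf4 was 149 CPM in that mouse, 12.4 CPM in WT mouse 4 and 0 in the other 6. Mast cells or basophils, 10 WT and 11 KO cells, held Tnfrsf18 at 459 CPM in WT mouse 2, from 1 cell, and at 0 to 117 CPM in the 6 other mice with such cells, with 0 UMIs of Cd40 in any mouse. Plasmacytoid DCs had Tnfrsf18 at 27.7 CPM and Cd40 at 12.7 CPM, below the 43.8 CPM of Cd40 in cDC1. None of these classes was tested between genotypes.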
